A study of Mus musculus with 24 samples.

Results

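DNA replication genes were followed as a module of 41 genes among the 19938 genes measured in mouse B lineage cells and BCR/ABL leukaemia. The 41 were taken from a list of replication genes and all 41 were measured, 40 by 1 probe set and 1 by several, of which the probe set with the highest mean across the 24 arrays was kept. By role they comprise 5 genes of origin licensing (Orc1, Orc6, Cdc6, Cdt1 and Gmnn), the 6 subunits of the MCM helicase (Mcm2 to Mcm7), 8 genes that activate the helicase (Mcm10, Cdc45, Cdc7, Dbf4 and Gins1 to Gins4) and 8 of the DNA polymerases and primase (Pola1, Pola2, Prim1, Prim2, Pold1, Pold2, Pole and Pole2). A further 5 encode the sliding clamp, its loader and single-strand binding protein (Pcna, Rfc3, Rfc4, Rfc5 and Rpa2), 2 join Okazaki fragments (Fen1 and Lig1), 3 act on chromatin at the fork (Chaf1a, Chaf1b and Uhrf1) and 4 control entry into S phase (Ccne1, Ccne2, E2f1 and E2f2).

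The RNA of bone marrow cells in 6 groups was hybridised to Affymetrix mouse gene arrays, which read each gene through sets of short probes. The titles call the arrays of a group biological replicates. Tumour-bearing marrow came from 7 Sca1-BCR/ABLp190+Pax5+/- mice (heterozygous leukaemias) and 2 Sca1-BCR/ABLp190 mice with both Pax5 copies (leukaemias with both copies). Preleukaemic pro-B and pre-B cells came from 3 Sca1-BCR/ABLp190+Pax5+/- mice (heterozygous precursors) and 3 Sca1-BCR/ABLp190 mice (precursors with both copies). The leukaemias were set against B220+ cells from the marrow of 5 wild-type animals. The preleukaemic cells were set against wild-type pro-B and pre-B cells, for which the labels give 4 samples, all used here, while the design text counts 3. In all oncogene-bearing mice the p190 form of the BCR/ABL fusion is driven by the Sca1 promoter, which is active in haematopoietic stem and progenitor cells, and no sort is named for the leukaemic marrow. The labels give no ages.

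Replication begins when the origin recognition complex, with Cdc6 and Cdt1, loads the MCM helicase onto DNA in G1, and the kinase Cdc7 with its subunit Dbf4, Cdc45 and the GINS complex then switch the helicase on at the start of S phase. Polymerase alpha with primase starts each strand, the polymerases delta and epsilon extend it on the PCNA clamp, and Fen1 and Lig1 seal the lagging strand. Many of these genes are transcribed through E2F factors as cells enter the cycle, and in marrow the pro-B and large pre-B stages divide quickly while later B cells are largely at rest.

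Values below are the deposited log2 expression values, and differences between groups are log2 changes ± SE from limma with Benjamini-Hochberg adjustment over all 19938 genes and a threshold of 0.05. B lineage markers were high in all precursor and B220+ arrays and low in leukaemic marrow. Their mean shift against the wild-type precursor mean lay between -3.32 and -1.05 in heterozygous leukaemias, at -3.64 and -2.35 in leukaemias with both copies, between -0.14 and 0.05 in oncogene-bearing precursors and between -0.02 and 0.39 in B220+ cells. In the same leukaemic marrow 10 of 12 markers of monocytes and macrophages, all 4 of megakaryocytes and 10 of 12 of stroma and endothelium were higher in heterozygous leukaemias than in B220+ cells, and 8 of 12 neutrophil markers were higher in leukaemias with both copies. Among T and NK cell markers, Cd4 (1.80, adjusted p = 0.00237) and Cd3g (2.16, adjusted p = 0.019) were higher in heterozygous leukaemias than in B220+ cells. Among erythroid markers, Tfrc (1.33, adjusted p = 0.0118) and Hemgn (3.21, adjusted p = 0.0395) were higher in leukaemias with both copies than in B220+ cells. No other T and NK cell or erythroid marker passed limma in these 2 comparisons. Megakaryocyte markers were higher in leukaemias with both copies as well: Ppbp (4.91, adjusted p = 0.000931), Pf4 (3.70, adjusted p = 0.0148) and Gp9 (3.56, adjusted p = 0.0172). Itga2b did not pass there (2.06, adjusted p = 0.076). Monocyte, macrophage and stroma counts for that comparison are not given here. These are bulk samples, so a change in the share of a cell type and a change of RNA per cell cannot be told apart. The female transcript Xist was in the upper part of its range on 3 of 7 heterozygous leukaemias and 1 of 2 leukaemias with both copies. The same held for 1 of 3 heterozygous precursors, 0 of 3 precursors with both copies and every wild-type array. Sex and genotype thus cannot be told apart for precursors with both copies. The Y-linked transcript Eif2s3y was high on 3 of 7 heterozygous leukaemias. On 1 of the 7 both or neither transcript was high, so its sex is unclear.

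RefSeq promoter windows of build GRCm38.p6, 250 bases before to 50 after the gene start, were found for 33 of the 41 members. They were searched on both strands, overlapping matches included, for the E2F sequences TTTCCCGC, TTTCGCGC, TTTGCCGC and TTTGGCGC. At least 1 match lay in the windows of 15 of 33 members (45.5%), against 3.48% of the 15614 measured genes with a window, 8 of 30 other replication genes (26.7%) and 1 of 14 mitosis genes (7.14%). The pentamer CCAAT was found in 57.6% of the members and 41.7% of all genes, and TTTGAA, the core of the cell cycle homology region, in 24.2% of the members, 17.3% of all genes and 71.4% of the mitosis genes. A match is a description of letters in the window and no measure of binding. The 5 windows below belong to members on which the results turn, with E2F matches in capitals, each read 5′ to 3′ on the strand of the gene. Orc1 (chr4:108579204-108579503, plus strand), the licensing gene that differed most between groups, had 1 match on the reverse strand, and Mcm6 (chr1:128359656-128359955, minus strand), the helicase subunit that did, had 3, of which 2 overlap in the first run of capitals. Pole2 (chr12:69228141-69228440, minus strand) had 1. E2f2 (chr4:136172024-136172323, plus strand) had 1 in this window and none in its other one. It was the 1 member that passed the test downward in heterozygous leukaemias against B220+ cells. Dbf4 (chr5:8422667-8422966, minus strand), the 1 member that passed the test in heterozygous precursors, had none.
Orc1: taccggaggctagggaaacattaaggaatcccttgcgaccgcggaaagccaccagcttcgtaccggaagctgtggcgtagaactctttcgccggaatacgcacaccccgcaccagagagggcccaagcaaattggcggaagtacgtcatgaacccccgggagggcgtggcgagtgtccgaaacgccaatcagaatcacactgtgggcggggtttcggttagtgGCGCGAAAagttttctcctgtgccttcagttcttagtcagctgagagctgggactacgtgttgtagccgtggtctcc
Mcm6: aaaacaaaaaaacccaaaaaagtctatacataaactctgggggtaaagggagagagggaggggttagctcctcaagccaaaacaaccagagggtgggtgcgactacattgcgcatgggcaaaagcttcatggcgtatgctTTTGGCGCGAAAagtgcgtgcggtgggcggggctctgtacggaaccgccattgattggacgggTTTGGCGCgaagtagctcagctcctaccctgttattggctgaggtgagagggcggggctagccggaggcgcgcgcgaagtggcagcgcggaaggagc
Pole2: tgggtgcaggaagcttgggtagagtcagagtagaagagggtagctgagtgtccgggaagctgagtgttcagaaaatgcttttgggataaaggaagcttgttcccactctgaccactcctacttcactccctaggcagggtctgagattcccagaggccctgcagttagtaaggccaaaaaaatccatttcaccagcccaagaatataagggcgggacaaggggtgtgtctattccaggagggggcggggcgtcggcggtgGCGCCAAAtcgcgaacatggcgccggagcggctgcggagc
E2f2: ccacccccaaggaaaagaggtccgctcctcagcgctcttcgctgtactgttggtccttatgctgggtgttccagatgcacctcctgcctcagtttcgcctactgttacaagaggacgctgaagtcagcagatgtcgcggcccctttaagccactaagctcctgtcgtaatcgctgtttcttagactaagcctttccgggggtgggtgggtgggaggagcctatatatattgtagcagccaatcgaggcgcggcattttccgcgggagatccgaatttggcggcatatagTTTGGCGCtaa
Dbf4: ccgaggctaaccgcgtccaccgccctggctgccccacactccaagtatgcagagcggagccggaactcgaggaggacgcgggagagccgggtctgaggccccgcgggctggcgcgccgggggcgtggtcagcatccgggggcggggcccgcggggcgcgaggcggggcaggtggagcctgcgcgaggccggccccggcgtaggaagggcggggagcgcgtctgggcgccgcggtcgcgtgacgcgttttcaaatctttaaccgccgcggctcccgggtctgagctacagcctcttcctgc

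Across the 6 groups the highest group mean was that of the leukaemias with both copies for 33 members and of the wild-type precursors for the other 8, and the lowest was that of the B220+ cells for 28, the precursors with both copies for 9, the heterozygous leukaemias for 3 and the heterozygous precursors for 1. The leukaemias with both copies were 2 arrays, with mean member shifts against the wild-type precursor mean of 0.43 and 0.00. The distance between the highest and the lowest group mean, on the log2 scale, ran from 0.50 for Pcna to 2.27 for Orc1. For Dbf4, Gins1, Pole2 and Chaf1b, and for no other member, each of the 11 arrays of oncogene-bearing precursors and B220+ cells lay below each of the 13 other arrays. The other arrays were those of leukaemias and wild-type precursors, a joining of groups that was chosen after the values were seen. The share of all genes split in this way was not counted, so the number of such members cannot be set against it.

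**Figure D1:**
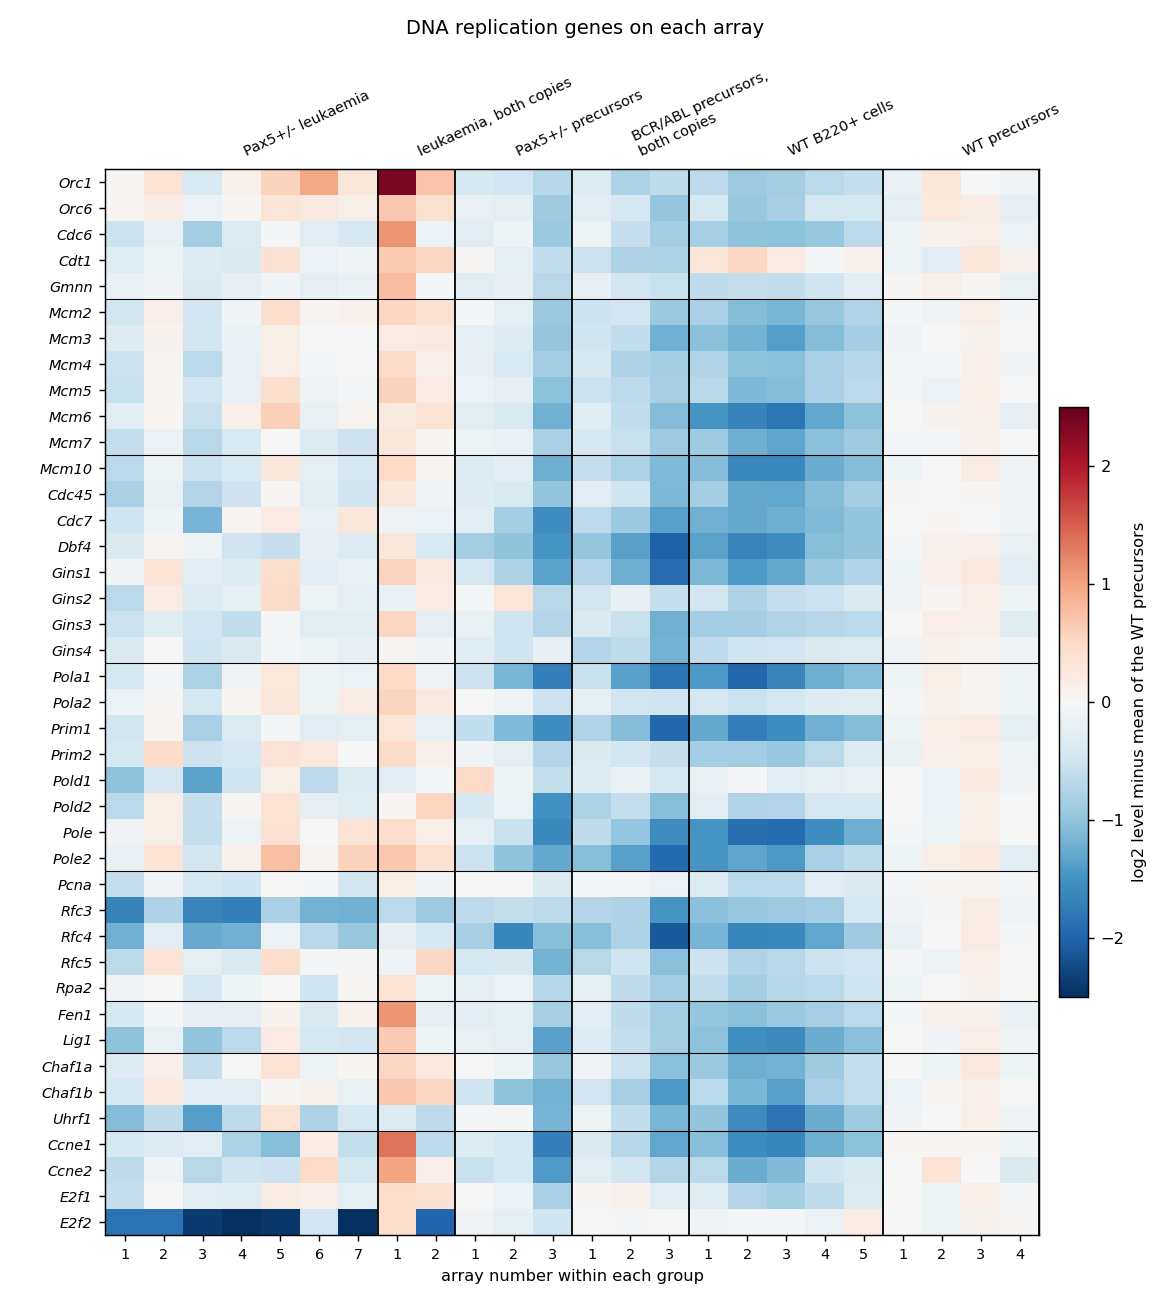
Log2 level of each of the 41 DNA replication genes (rows, grouped by role) on each of 24 arrays (columns, numbered within group), as the difference from the mean of the 4 wild-type precursor arrays. Oncogene-bearing precursors and B220+ cells are mostly blue, and E2f2 in the bottom row is blue in most leukaemias. Of the leukaemias with both copies, array 1 is mostly red and array 2 is mixed (mean shifts of 0.43 and 0.00).

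Among the licensing genes, Orc1, a subunit of the origin recognition complex, varied most. Its log2 level had a lowest value of 6.57, a median of 7.24 and a highest value of 7.90 in the 7 heterozygous leukaemias, while leukaemias with both copies had 9.30 and 7.67. It was 6.56, 6.48 and 6.23 in heterozygous precursors and 6.62, 6.17 and 6.32 in precursors with both copies. The values were 6.30, 6.05, 6.09, 6.27 and 6.36 in B220+ cells and 6.79, 7.23, 6.94 and 6.87 in wild-type precursors. All leukaemias lay above all B220+ arrays, all oncogene-bearing precursors lay below all wild-type precursors, and array 1 of the leukaemias with both copies stood apart at the top. Cdt1, which brings the helicase to origins, was the member that did not follow the others in B220+ cells: it averaged 9.55 ± 0.21 there (SD, n = 5) and 9.34 ± 0.24 in wild-type precursors (SD, n = 4). Its highest group mean was that of the leukaemias with both copies (9.93 ± 0.09, SD, n = 2) and its lowest that of the precursors with both copies (8.64 ± 0.14, SD, n = 3).

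Among the helicase subunits, Mcm6 had a lowest value of 10.17, a median of 10.78 and a highest value of 11.31 in heterozygous leukaemias and values of 10.95 and 11.06 in leukaemias with both copies. It had 10.46, 10.35 and 9.52 in heterozygous precursors and 10.42, 10.10 and 9.64 in precursors with both copies. In normal mice it had 9.24, 9.05, 8.93, 9.42 and 9.70 in B220+ cells and 10.71, 10.80, 10.86 and 10.52 in wild-type precursors. The B220+ cells lay below every leukaemia and every wild-type precursor, and each oncogene-bearing precursor lay below the lowest wild-type precursor. The other 5 subunits had distances between group means from 1.17 for Mcm4 to 1.40 for Mcm2, with the leukaemias with both copies highest and B220+ cells lowest for all 5.

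Of the genes that activate the helicase, Gins1, a GINS subunit, had a lowest value of 8.40, a median of 8.57 and a highest value of 9.18 in heterozygous leukaemias, and 9.30 and 8.97 in leukaemias with both copies. Its values were 8.31, 7.97 and 7.40 in heterozygous precursors and 8.01, 7.52 and 6.83 in precursors with both copies. The values were 7.62, 7.30, 7.47, 7.81 and 7.98 in B220+ cells and 8.63, 8.86, 8.99 and 8.48 in wild-type precursors. Within each oncogene-bearing precursor group array 3 was the lowest. Of the polymerase genes, Pole2, the second subunit of polymerase epsilon, had a lowest value of 8.26, a median of 8.84 and a highest value of 9.47 in heterozygous leukaemias and 9.39 and 9.11 in leukaemias with both copies. It had 8.19, 7.71 and 7.43 in heterozygous precursors and 7.65, 7.36 and 6.78 in precursors with both copies. In normal mice it had 7.25, 7.40, 7.28, 7.90 and 8.08 in B220+ cells and 8.61, 8.87, 8.97 and 8.43 in wild-type precursors. Every oncogene-bearing precursor and every B220+ array lay below the lowest wild-type precursor and below the lowest leukaemia.

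Rfc4, a subunit of the clamp loader, had a lowest value of 10.14, a median of 10.45 and a highest value of 11.25 in heterozygous leukaemias and 11.20 and 11.00 in leukaemias with both copies. It had 10.57, 9.77 and 10.33 in heterozygous precursors and 10.33, 10.64 and 9.31 in precursors with both copies. The values were 10.24, 9.78, 9.79, 10.11 and 10.51 in B220+ cells and 11.25, 11.39, 11.61 and 11.38 in wild-type precursors. The wild-type precursors were the highest group here, above every array of the other groups except heterozygous leukaemia 5, which was level with the lowest of them. Pcna, the clamp itself, moved least of the members: its group means ran from 12.21 ± 0.18 in B220+ cells (SD, n = 5) to 12.72 ± 0.16 in leukaemias with both copies (SD, n = 2).

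Lig1, the ligase that joins Okazaki fragments, had a lowest value of 8.98, a median of 9.51 and a highest value of 10.20 in heterozygous leukaemias and 10.64 and 9.88 in leukaemias with both copies. It had 9.81, 9.76 and 8.64 in heterozygous precursors and 9.66, 9.41 and 9.13 in precursors with both copies. In normal mice it had 8.96, 8.45, 8.40, 8.75 and 8.95 in B220+ cells and 9.99, 9.93, 10.15 and 9.90 in wild-type precursors. Heterozygous precursor 3 lay among the B220+ arrays, while the other oncogene-bearing precursors lay above them. Chaf1b, a subunit of the factor that deposits histones behind the fork, had a lowest value of 8.85, a median of 9.10 and a highest value of 9.53 in heterozygous leukaemias and 9.95 and 9.79 in leukaemias with both copies. It had 8.78, 8.28 and 8.10 in heterozygous precursors and 8.80, 8.46 and 7.85 in precursors with both copies. The values were 8.61, 8.14, 7.93, 8.48 and 8.69 in B220+ cells and 9.14, 9.31, 9.40 and 9.28 in wild-type precursors. The leukaemias with both copies were the highest group, above every heterozygous leukaemia.

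E2f2, an E2F factor that activates S phase genes, followed another pattern. Its level was 8.98, 8.98, 8.43, 7.68, 8.40, 10.35 and 7.57 on heterozygous leukaemia arrays 1 to 7, while leukaemias with both copies had 11.28 and 8.84. It was 10.75, 10.61 and 10.33 in heterozygous precursors and 10.85, 10.77 and 10.82 in precursors with both copies. In normal mice it had 10.75, 10.77, 10.78, 10.68 and 11.01 in B220+ cells and 10.81, 10.73, 10.92 and 10.86 in wild-type precursors. All leukaemias but heterozygous leukaemia 6 and array 1 with both copies lay below all non-leukaemic arrays. These 2 arrays also had the highest erythroid marker shifts (2.06 and 3.19, against -1.30 to 0.81 on the other heterozygous leukaemias and -0.37 on the other array with both copies). The part of erythroid cells in the E2f2 level was not tested. Orc1 was highest on the same array within each group, with 7.90 and 9.30.

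**Figure D2:**
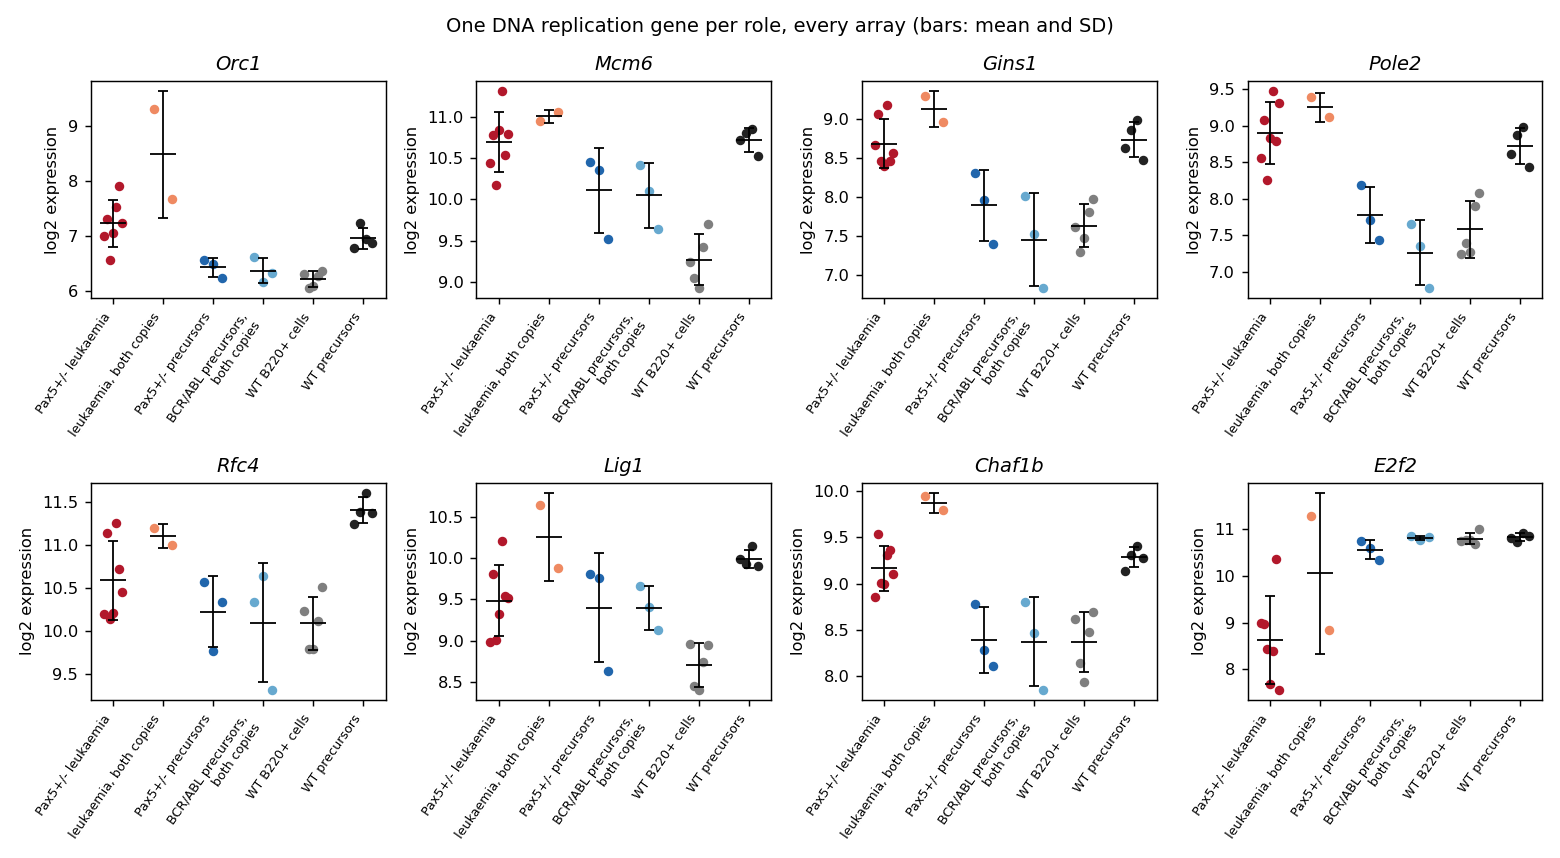
Log2 level on every array for the member of each role with the widest distance between group means, with mean and SD per group. Orc1, Mcm6, Gins1, Pole2 and Chaf1b are lower in B220+ cells than in every leukaemia, and E2f2 is lower in most leukaemias than in all other arrays.

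The first comparison set heterozygous leukaemias against B220+ cells of wild-type mice. Most replication genes were higher in the leukaemias: 29 of 41 passed limma upward and 1, E2f2, downward, with a median log2 change of 0.69. Of all genes 31.8% passed, 12.9% upward and 18.9% downward, with a median of -0.06. All 6 MCM subunits rose, from 0.69 ± 0.13 for Mcm7 to 1.43 ± 0.18 for Mcm6 (adjusted p = 0.00133 and 8.18e-05, limma), as did 6 of 8 helicase activation genes, 6 of 8 polymerase and primase genes, 3 of 5 licensing genes, 2 of 5 clamp and loader genes, both Okazaki genes, 2 of 3 chromatin genes and 2 of 4 S phase control genes. The largest rise was that of Pole, the catalytic subunit of polymerase epsilon, by 1.62 ± 0.17 (7 of 7 arrays above all B220+ arrays, adjusted p = 2.02e-05). Pole2 rose by 1.32 ± 0.22 (adjusted p = 0.000552) and Pola1, the catalytic subunit of polymerase alpha, by 1.27 ± 0.19 (adjusted p = 0.000311). The arrays of the groups did not overlap for 22 members, against 20.1% of all genes. Of the members 4 had a log2 change below 0, among them E2f2, which fell by 2.17 ± 0.48 (adjusted p = 0.00397). Without the leukaemias with the highest erythroid markers (heterozygous 6 and both copies 1) the fall was 2.46 (adjusted p = 4.24e-05). Those arrays also had the highest E2f2 levels of the leukaemias (10.35 and 11.28), so the larger fall without them is no separate support. With each array left out in turn, 24 to 32 members passed.

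Among the other lists, 16 of 17 mitosis genes rose with the members (median 1.33), among them Bub1b (1.44 ± 0.15) of the spindle checkpoint and the centromere gene Cenpf (1.65 ± 0.17). Of 35 other replication genes 16 rose and 4 fell. Ticrr, which helps to load Cdc45, rose by 1.68 ± 0.15 and the nuclease Dna2 by 1.79 ± 0.18, while Pold4, the small subunit of polymerase delta, fell by 1.69 ± 0.16 and the histone chaperone Asf1a by 0.79 ± 0.10. Of 9 genes of nucleotide supply 5 rose, among them the thymidylate enzymes Tyms (1.71 ± 0.22) and Tk1 (1.29 ± 0.19), and 2 fell, Rrm2b (-2.44 ± 0.13), the p53-induced subunit of ribonucleotide reductase, and the salvage kinase Dck (-1.16 ± 0.22). Of 14 fork and checkpoint genes 8 rose and 2 fell, with Tipin (1.31 ± 0.15) and Timeless (1.02 ± 0.13) of the fork protection complex upward and Rad9a (-1.30 ± 0.15) and Rad17 (-0.57 ± 0.09) downward. Of the other E2F and Rb family genes 6 of 14 rose, Tfdp1 (1.24 ± 0.14), the partner of E2F factors, and E2f3 (0.92 ± 0.15) among them, and 2 fell, E2f5 (-0.79 ± 0.11) and Rb1 (-1.17 ± 0.33). Among 9 inhibitors and quiescence genes 4 fell, including Btg1 (-1.77 ± 0.16) and Ccng2 (-1.70 ± 0.17), and 1, Cdkn2c (0.93 ± 0.23), rose. All genes named here passed limma, with adjusted p-values from 1.31e-07 for Rrm2b to 0.0174 for Rb1.

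Against the same B220+ cells, 34 of 41 members rose and 0 fell in the other leukaemias, those with both Pax5 copies, with a median log2 change of 1.17, where 21.4% of all genes passed (9.48% upward) with a median of -0.07. Orc1 rose by 2.27 ± 0.37 (adjusted p = 0.00102), Pole by 1.91 ± 0.24 (adjusted p = 0.000186), Mcm6 by 1.74 ± 0.26 (adjusted p = 0.000521) and Pola1 by 1.67 ± 0.27 (adjusted p = 0.00105), each higher in 2 of 2 arrays. Those that did not pass were Cdt1, Gins2, Pold1, Pcna, Rfc3, Uhrf1 and E2f2, and E2f2 alone had a log2 change below 0 (-0.74 ± 0.68, adjusted p = 0.45). Without array 1 of this group 22 members passed, with Orc1 at 1.45 (adjusted p = 0.0181), and 33 was the highest count with 1 array left out. That array carried the highest erythroid (3.19) and neutrophil (3.96) marker shifts of all arrays, and their part in these values was not tested. Mitosis genes rose here too, 16 of 17 with a median of 1.84, led by Cenpf (2.17 ± 0.25) and Kif20a (1.94 ± 0.25), a kinesin of cell division.

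The leukaemias were then compared with each other, which asks whether the Pax5 copy changes these genes once leukaemia is present. All 41 members had lower means in heterozygous leukaemias than in leukaemias with both copies, with a median log2 change of -0.46 against 0.02 over all genes, but 0 passed limma, where 1.87% of all genes did. At an unadjusted p under 0.05 there were 19 members. The share of all genes at that threshold is not given here, so this count cannot be set against it. Cdt1 had the smallest p, with -0.72 ± 0.17 (adjusted p = 0.0527) and no overlap between the groups. It was at -0.66 without the 2 leukaemias with the highest erythroid markers, which leaves 1 array with both copies. When leukaemia 2 with both copies was left out, 7 members passed, all lower, and without heterozygous leukaemia 5 there was 1. Markers moved with the contrast: 7 of 12 neutrophil markers were lower in heterozygous leukaemias. Their shifts were -1.16 to 1.47 there and 3.35 to 3.96 in the leukaemias with both copies. Of the B lineage markers, Cd79b passed and was higher in heterozygous leukaemias (1.29, adjusted p = 0.0427, limma). B lineage shifts overlapped, at -3.32 to -1.05 against -3.64 and -2.35. Erythroid shifts overlapped too, at -1.30 to 2.06 against -0.37 and 3.19. The part of these markers in the members' difference was not tested.

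**Figure D3:**
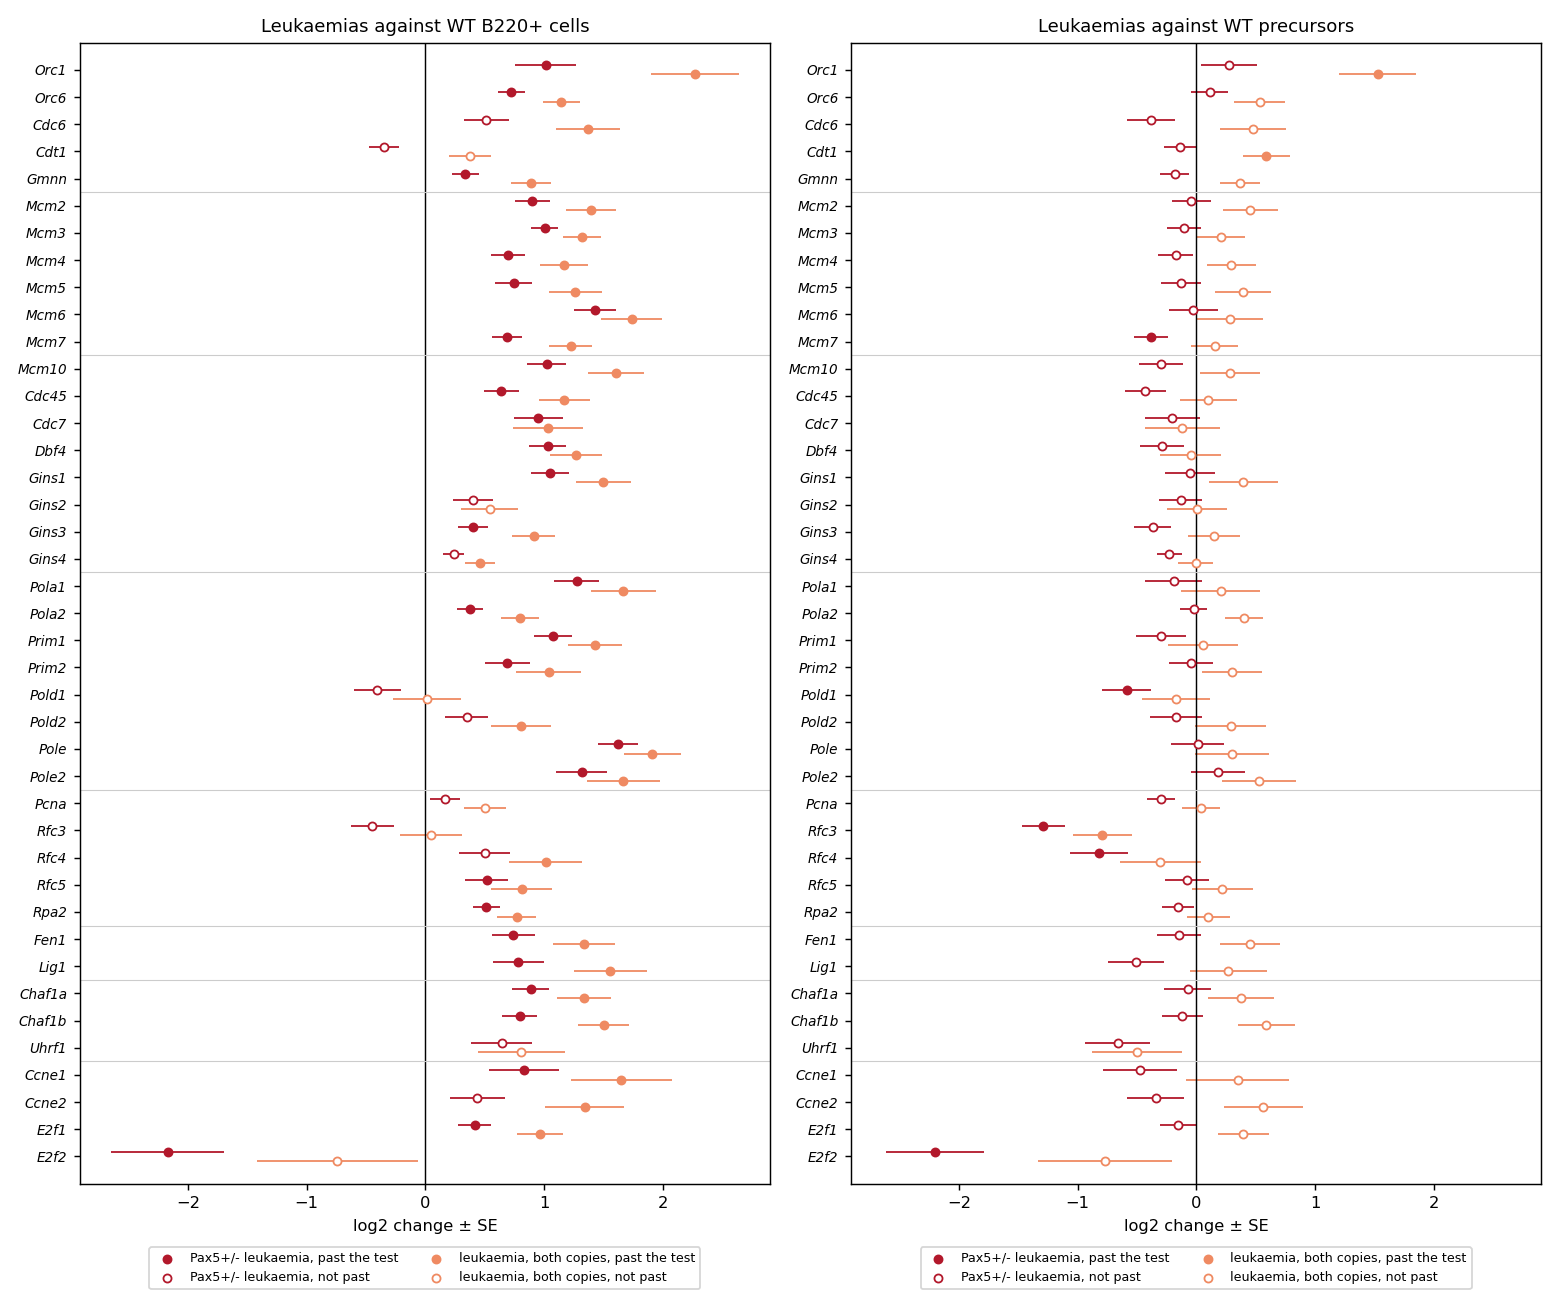
Log2 change ± SE of each member in heterozygous leukaemias (dark red) and leukaemias with both copies (orange), against B220+ cells at the left and wild-type precursors at the right, with filled points for those past limma. Against B220+ cells 29 and 34 members are past the test to the right of 0, and against wild-type precursors 5 and 3 are past it in either direction.

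Preleukaemic precursors were compared with wild-type precursors of the stages the labels give as the same. In heterozygous precursors all 41 members had lower means, with a median log2 change of -0.48 against 0.03 over all genes, and 1 passed limma, where 4.17% of all genes did. That member was Dbf4, with 8.89, 8.76 and 8.28 in heterozygous precursors against 9.71, 9.88, 9.89 and 9.57 in wild-type precursors, a fall of 1.12 ± 0.23 (lower in 3 of 3 arrays, adjusted p = 0.0329). Its call was lost on leaving out any of the arrays compared, with adjusted p-values from 0.0506 to 0.0982, and 3 other members passed without heterozygous precursor 1. At an unadjusted p under 0.05 there were 27 members, a count given without the share of all genes at that threshold. For 25 of the 41 members the arrays of the groups did not overlap, against 24.3% of all genes. Without both oncogene-bearing precursors numbered 3, the lowest for these genes, 12 members passed and the median was -0.29. The share of all genes that passed in that setting is not given here, so the higher count cannot be read as particular to the members. Of 9 T and NK cell markers 3 were lower in these precursors, with shifts of -1.06 to -0.46 against -0.20 to 0.23 in wild-type precursors. Of 6 erythroid markers 1, Alas2, was lower (-1.19, adjusted p = 0.0361), with shifts of -0.78 to -0.52 against -0.18 to 0.12, and 0 of the B lineage, megakaryocyte, monocyte, neutrophil and stroma markers passed. The part of these markers in the result was not tested. Of the other lists, 2 of 35 other replication genes, 3 of 14 E2F and Rb family genes and 1 of 17 mitosis genes fell and 0 rose.

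In precursors with both copies 26 of 41 members fell and 0 rose, with a median of -0.67, where 27.1% of all genes passed (15.5% downward). Dbf4 fell by 1.46 ± 0.23 (adjusted p = 0.0046), Pole2 by 1.46 ± 0.23 (adjusted p = 0.00479), Rfc4 by 1.31 ± 0.29 (adjusted p = 0.0128) and Gins1 by 1.28 ± 0.28 (adjusted p = 0.0124), each lower in 3 of 3 arrays. By role 5 of 6 MCM subunits, 6 of 8 helicase activation genes, 6 of 8 polymerase and primase genes, 4 of 5 clamp and loader genes, 3 of 5 licensing genes, 1 of 2 Okazaki genes (Fen1) and 1 of 3 chromatin genes (Chaf1b) fell, and 0 of 4 S phase control genes, with E2f1 at -0.05 ± 0.18 and E2f2 at -0.02 ± 0.09 (adjusted p = 0.845 and 0.904). The count was 8 without array 3 of this group, 11 without array 2, and 15, 12 and 11 without wild-type precursors 1, 2 and 3. It was 29 with both oncogene-bearing precursors numbered 3 left out, and 12 and 11 after quantile normalization and cyclic loess. In the same comparison 10 of 17 mitosis genes fell, with a median of -1.24, Cenpa (-0.72 ± 0.13) and Bub1b (-1.62 ± 0.40) among them. Of other replication genes 22 of 35 fell, led by the fork protein Donson (-1.02 ± 0.16) and the histone chaperone subunit Supt16 (-0.71 ± 0.12), and 8 of 14 fork and checkpoint genes, led by Hus1 (-0.57 ± 0.09) and the kinase Atr (-0.73 ± 0.15). Of nucleotide supply genes 4 of 9 fell, with Rrm1, the large subunit of ribonucleotide reductase, at -0.88 ± 0.21, and of E2F and Rb family genes 8 of 14, led by E2f5 (-0.78 ± 0.10) and E2f6 (-1.03 ± 0.17). Of 9 inhibitors and quiescence genes 2 rose, Btg2 (0.42 ± 0.09) and Cdkn1c (0.24 ± 0.08), and 2 fell. Markers of T and NK cells were lower as well, 5 of 9 past the test, with shifts of -1.26 to -0.54 against -0.20 to 0.23 in wild-type precursors. Of 12 stroma and endothelium markers 5 were higher and 1 lower (shifts of 0.04 to 0.15 against -0.08 to 0.05), and of 10 B lineage markers 1 was higher and 2 lower. The part of these markers in the result was not tested.

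Between the oncogene-bearing precursors 0 members passed, where 0.0251% of all genes did. An unadjusted p under 0.05 was found for 3 members, a count given without the share of all genes at that threshold. The median log2 change, heterozygous minus both copies, was 0.18, and Gins4, a GINS subunit, had the smallest p (0.52 ± 0.14, adjusted p = 0.188). With the replicate number as a block 0 members passed as well, and Gins4 had an adjusted p of 0.32. The mean shift of the members was -0.27, -0.41 and -1.01 on heterozygous arrays 1 to 3, against -0.45, -0.65 and -1.05 on arrays 1 to 3 with both copies. The heterozygous array was thus the higher of each pair of arrays with the same number. The difference between the Pax5 copy contrasts of leukaemias and precursors was tested on all 24 arrays. It was below 0 for all 41 members, with a median of -0.64, and passed for 1 member, where 0.692% of all genes passed. That was Cdt1, at -1.15 ± 0.26 (adjusted p = 0.0404), which was -0.72 between the leukaemias and 0.43 between the precursors. The call was lost in 7 of the settings tried other than leaving out an array, with adjusted p-values from 0.0706 to 0.212, and on leaving out any of 7 arrays (0.0535 to 0.121), while 8 members passed when leukaemia 2 with both copies was left out.

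**Figure D4:**
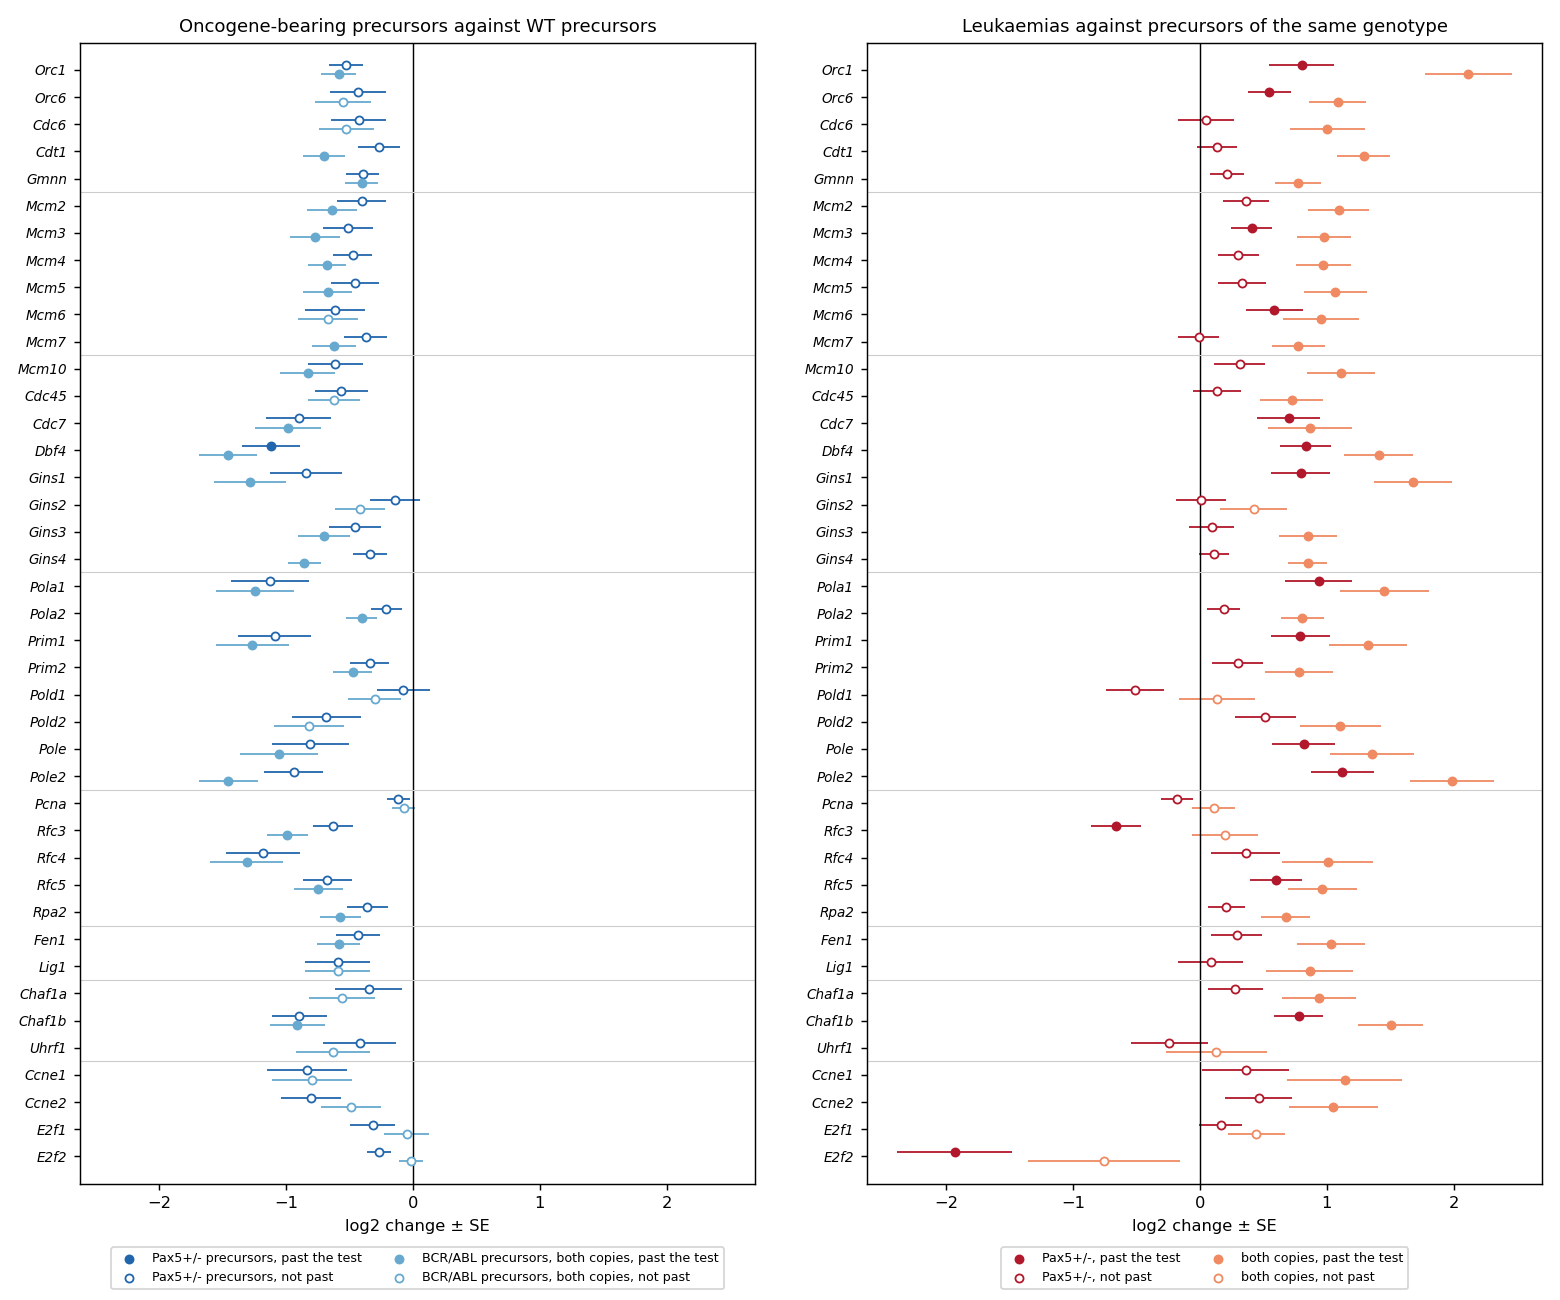
Log2 change ± SE of each member in oncogene-bearing precursors against wild-type precursors (left) and in leukaemias against precursors of the same genotype (right), with filled points for those past limma. At the left all points lie below 0, with 1 and 26 past the test, and at the right 15 and 34 are past the test.

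The wild-type groups were also compared with each other. In B220+ cells 33 of 41 members were lower than in wild-type precursors and 0 higher, with a median log2 change of -0.89 against 0.00 over all genes, where 8.84% of all genes passed (4.26% downward). No label says that the leukaemia and precursor sets were normalized in 1 run, which bears on this and the next comparisons, as on the levels above. Pole was lower by a log2 change of -1.61 ± 0.24 (adjusted p = 0.000226), Pola1 by -1.47 ± 0.26 (adjusted p = 0.000855), Mcm6 by -1.46 ± 0.22 (adjusted p = 0.000226) and Prim1, the catalytic subunit of primase, by -1.37 ± 0.23 (adjusted p = 0.000517), each in 5 of 5 arrays. Leaving out each array in turn gave 27 to 32 members. All 17 mitosis genes were lower too (median -1.72). Of 10 B lineage markers 2, Ms4a1 (3.03, adjusted p = 0.00135) and Cd22 (1.70, adjusted p = 0.000517), were higher in B220+ cells. Among the 8 that did not pass, Rag1, Igll1 and Ebf1, genes of early B cells, averaged 11.22, 12.62 and 12.51 in B220+ cells. In wild-type precursors they averaged 11.27, 13.14 and 12.51. Vpreb1 and Dntt, early B cell genes that did not pass either, averaged lower in B220+ cells, at 8.23 and 9.43 against 9.41 and 10.73. Of 9 T and NK cell markers 1, Gzma, was lower (-1.89, adjusted p = 0.0218), with shifts of -1.22 to -0.46 in B220+ cells against -0.20 to 0.23. Of 6 erythroid markers 1, Tfrc, was lower (-0.90, adjusted p = 0.0181), with shifts of -0.71 to -0.42 against -0.18 to 0.12. The part of these markers in the result was not tested.

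Against wild-type precursors the leukaemias differed in few members. In heterozygous leukaemias 5 were lower and 0 higher, with a median of -0.17, where 32.2% of all genes passed (19.6% downward). These were E2f2 (-2.20 ± 0.41, adjusted p = 0.000414), Rfc3, a clamp loader subunit (-1.29 ± 0.18, lower in 7 of 7 arrays, adjusted p = 2.14e-05), Rfc4 (-0.82 ± 0.25, adjusted p = 0.0157), Pold1, the catalytic subunit of polymerase delta (-0.59 ± 0.21, adjusted p = 0.0357), and Mcm7 (-0.38 ± 0.14, adjusted p = 0.0477). The count was 10 without heterozygous leukaemia 5, 3 without heterozygous leukaemia 1 or 3 or wild-type precursor 1 or 4, and 2 without wild-type precursor 3, and median centring gave 11. The call of Pold1 was lost on leaving out heterozygous leukaemia 1, 3 or 6 or wild-type precursor 1, 3 or 4 (adjusted p = 0.0517 to 0.111). It was also lost with cyclic loess (0.0624), with other samples in the fit (0.0841) and without the leukaemias with the highest erythroid markers (log2 change -0.57). The call of Rfc4 was lost without wild-type precursor 3 (-0.75, adjusted p = 0.0532). That of Mcm7 was lost on leaving out any array compared except heterozygous leukaemia 2 or 5 (adjusted p = 0.0576 to 0.121), and with quantile normalization (0.0884), cyclic loess (0.204) or without the leukaemias with the highest erythroid markers (0.0559). Against the same wild-type precursors, leukaemias with both copies had 2 members higher, Orc1 (1.53 ± 0.32, adjusted p = 0.0023) and Cdt1 (0.59 ± 0.20, adjusted p = 0.0376), and 1 lower, Rfc3 (-0.80 ± 0.25, adjusted p = 0.0277), where 21.4% of all genes passed, with a median of 0.28 over the members. When leukaemia 1 with both copies was left out, Orc1 was at 0.71 (adjusted p = 0.151) and 1 member passed, and without array 2 there were 5. The calls of Cdt1 and Rfc3 were lost on leaving out either leukaemia (adjusted p = 0.207 and 0.0748 for Cdt1, 0.076 and 0.146 for Rfc3), that of Cdt1 also without wild-type precursor 1 or 2 (0.077 and 0.0882) and that of Rfc3 without wild-type precursor 3 (0.0644). Rfc3 values were 8.60, 9.49, 8.62, 8.56, 9.46, 9.08 and 9.06 in heterozygous leukaemias and 9.59 and 9.36 in leukaemias with both copies, against 10.21, 10.22, 10.46 and 10.19 in wild-type precursors, so no leukaemia reached the lowest wild-type precursor. In leukaemias with both copies, Cdt1 also lost its call with median centring, array weights, other samples in the fit or the replicate block (adjusted p = 0.0544 to 0.419). Rfc3 lost its call with array weights (0.266) and Orc1 with other samples in the fit (0.0681). Many markers differed in the same comparisons. In heterozygous leukaemias 9 of 10 B lineage markers were lower than in wild-type precursors, 10 of 12 monocyte and macrophage, 4 of 4 megakaryocyte and 10 of 12 stroma markers were higher, and of 9 T and NK cell markers 1 was higher and 2 lower. In leukaemias with both copies 9 of 10 B lineage markers were lower, and 8 of 12 monocyte and macrophage, 4 of 4 megakaryocyte, 9 of 12 stroma, 7 of 12 neutrophil and 2 of 6 erythroid markers were higher. In both, 1 stroma and endothelium marker, Pecam1, was lower, and with both copies 2 of 9 T and NK cell markers were lower. The part of these markers in the members' values was not tested.

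The leukaemias were last set against precursors of the same genotype. In heterozygous leukaemias 13 members were higher than in heterozygous precursors and 2 lower, with a median of 0.30, where 44.7% of all genes passed (16.4% upward). Pole2 (1.12 ± 0.25, adjusted p = 0.00145), Pola1 (0.94 ± 0.26, adjusted p = 0.0079), Dbf4 (0.83 ± 0.20, adjusted p = 0.00306) and Pole (0.82 ± 0.25, adjusted p = 0.0121) rose most, and E2f2 (-1.93 ± 0.45, adjusted p = 0.00212) and Rfc3 (-0.66 ± 0.20, adjusted p = 0.0114) fell. Without heterozygous precursor 3, 3 rose and 3 fell, with Pola1 at 0.65 (adjusted p = 0.0841) and Pole at 0.42 (adjusted p = 0.167). Of the members 34 were higher in leukaemias with both copies than in precursors with both copies and 0 lower, with a median of 0.97, where 45.7% of all genes passed (18.1% upward). Orc1 (2.12 ± 0.34, adjusted p = 0.000121), Pole2 (1.99 ± 0.33, adjusted p = 0.000148), Gins1 (1.68 ± 0.31, adjusted p = 0.000338) and Chaf1b (1.50 ± 0.26, adjusted p = 0.000186) rose most, each in 2 of 2 arrays, and 21 members passed when leukaemia 1 with both copies was left out. The difference between these 2 changes is the Pax5 copy contrast given above, which passed for Cdt1 alone. Against heterozygous precursors, heterozygous leukaemias had 9 of 10 B lineage markers and 1 of 12 stroma markers lower, and 11 of 12 monocyte and macrophage, 4 of 4 megakaryocyte, 10 of 12 stroma and 2 of 9 T and NK cell markers higher. Against precursors with both copies, leukaemias with both copies had 8 of 10 B lineage markers and 1 of 12 stroma markers lower, and 8 of 12 monocyte and macrophage, 4 of 4 megakaryocyte, 9 of 12 stroma, 7 of 12 neutrophil and 4 of 6 erythroid markers higher. Megakaryocyte shifts were 1.50 to 4.93 in heterozygous leukaemias and 3.04 and 4.72 in leukaemias with both copies, against 0.00 to 0.29 in oncogene-bearing precursors. Erythroid shifts were -1.30 to 2.06 in heterozygous leukaemias and -0.37 and 3.19 in leukaemias with both copies, against -0.78 to -0.52 in heterozygous precursors and -0.25 to 0.70 in precursors with both copies. The part of these markers in the members' changes was not tested.

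The mean shift of all members per array, against the wild-type precursor mean, was -0.54, -0.06, -0.64, -0.40, 0.07, -0.16 and -0.26 on heterozygous leukaemias 1 to 7, while leukaemias with both copies had 0.43 and 0.00. It was -0.27, -0.41 and -1.01 in heterozygous precursors, -0.45, -0.65 and -1.05 in precursors with both copies, -0.81, -1.07, -1.07, -0.81 and -0.63 in B220+ cells and -0.06, 0.03, 0.13 and -0.10 in wild-type precursors. Arrays 3 of the 2 oncogene-bearing precursor groups lay at the level of B220+ cells, and they were the lowest of the precursors for mitosis genes as well (-2.06 and -1.78), with B lineage marker shifts of -0.06 and -0.08. Among the heterozygous leukaemias, arrays 2, 5 and 6 had the highest member shifts and the highest B lineage shifts (-1.05, -1.21 and -1.41, against -3.32 to -2.78 on the other 4), and the part of the share of B lineage cells in the members' level was not tested.

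**Figure D5:**
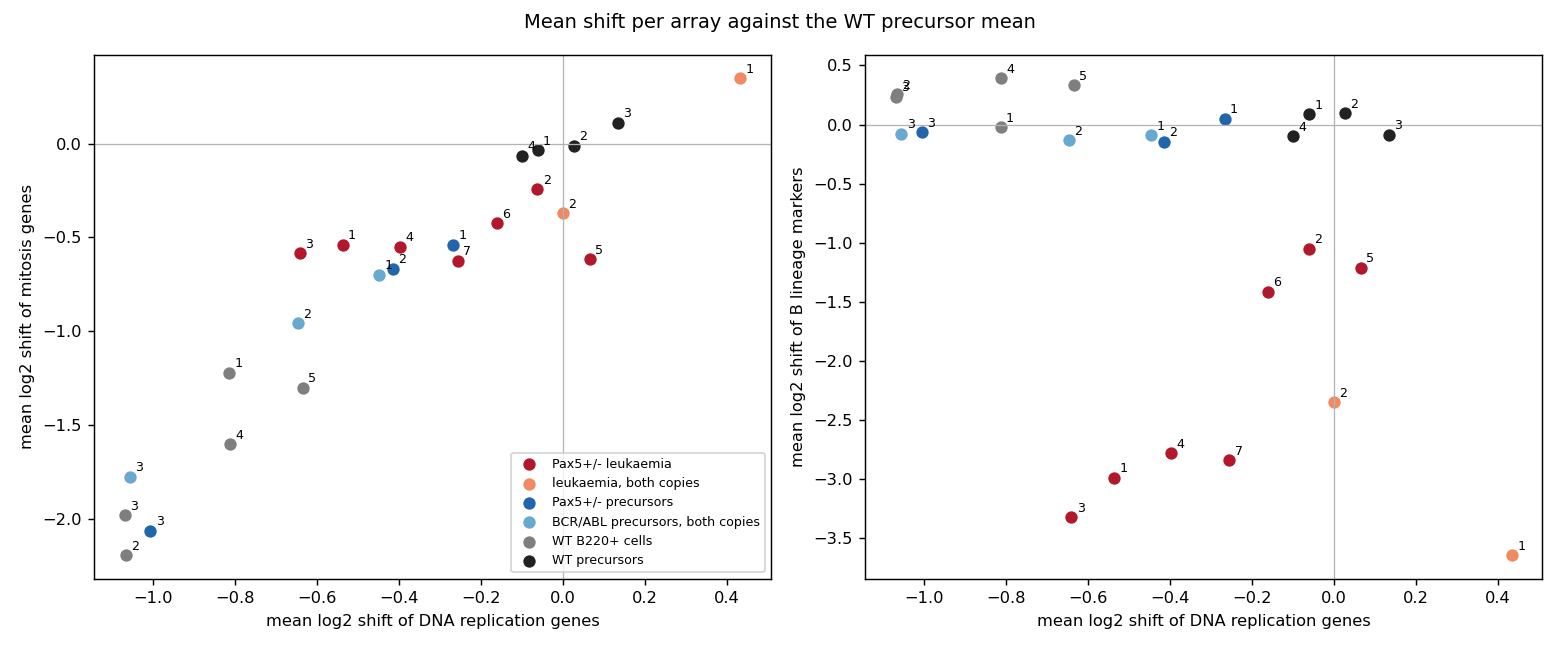
Mean log2 shift per array of the 41 members (x axis) against that of 17 mitosis genes (left) and 10 B lineage markers (right), all against the wild-type precursor mean, with array numbers beside the points. Arrays numbered 3 of both oncogene-bearing precursor groups lie with the B220+ cells at the left, and the leukaemias lie far below the other arrays for B lineage markers.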

How the data were processed

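The deposited values are log2 expression values of 24 arrays, made by the authors with RMA in the oligo package, per the submitters' processing notes (no version is stated), and they were used unchanged. Of 35556 probe sets 21789 had 1 gene symbol in the platform annotation, 1621 several and 12146 none, and 21698 matched a RefSeq gene. The probe set with the highest mean stood for a gene, which gave 19938 genes. Arrays give no read depth, and their number limits the precision; p-values measure the spread between the labelled biological replicates. Groups were compared with limma 3.58.1 in R 4.3.3 (two-sided moderated tests, Benjamini-Hochberg adjustment over all genes, threshold 0.05), on the 14 leukaemia and B220+ arrays, the 10 precursor arrays, or all 24 for comparisons across these sets, in 12 comparisons. The fit was tested on simulated data, and promoters were searched in Python 3.11.15.

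The members and all gene lists were chosen with earlier results of these data known. In each comparison up to 4 members with the largest rise and 4 with the largest fall past the test were named, any member past it against the majority, or the one with the smallest p where none passed. Mcm7 against wild-type precursors, ends of ranges and single markers were named outside this rule, after their values were seen, and are not in the counts of named values in the closing section. Per-array values are given for the member of each role with the widest range of group means, and for Dbf4 and Rfc3, and group means for Cdt1 and Pcna, these 4 chosen after their values were seen. From the other lists up to 2 genes per direction with the smallest adjusted p were named.

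Alternatives were quantile normalization, median centring, cyclic loess, array weights, an intensity trend with a robust prior, removal of the dimmest 25% of genes, the mean of all probe sets, other samples in the fit, the replicate number as a block, a minimum log2 change of 0.5 and leaving out each array. After the data were seen, leaving out both oncogene-bearing precursors numbered 3 and the 2 leukaemias with the highest erythroid markers were added. Samples with the same number deviated together between the oncogene-bearing precursor groups (correlations 0.208 to 0.25 in 3 pairs). That pairs them from the data and not from the labels. Leukaemias and precursors with both copies did so too (0.167 and 0.183 in 2 pairs, at most 0.0499 between unlike numbers).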

Additional observations from a re-analysis of the deposited data

Results flagged for a closer look

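Of 123 groups of 4 to 10 arrays, 1 for each member and group, 4 had an array set apart from the rest by Dixon's test, where chance alone gives about 1 in 20. Cdt1 was highest on heterozygous leukaemia 5 (9.70), E2f2 on B220+ array 5 (11.01) and Rfc3 on wild-type precursor 3 (10.46), and Ccne1, the cyclin E gene, was lowest on wild-type precursor 4 (9.83). The Pax5 copy contrast of Cdt1 differed between leukaemias and precursors by -1.15 on the log2 scale (adjusted p = 0.0404, limma).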

How the results depend on the processing

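No named member value changed direction in the alternatives run. With all arrays, or in the settings added after the data were seen, 358 named member values kept their side of the threshold. In these, 27 lost it and 2 gained it. With 1 array left out 299 kept it, 31 lost it and 1 gained it. The following give members past the test, and the cause of each change was not tested. The share of all genes that passed in each setting is not given here. A changed count thus cannot be read as particular to the members. With 1 array left out the counts ran from 24 to 32 (heterozygous leukaemias against B220+ cells), 22 to 33 (leukaemias with both copies against B220+ cells), 0 to 7 (between leukaemias), 0 to 3 (heterozygous against wild-type precursors), 8 to 29 (precursors with both copies against wild type), 0 to 0 (between oncogene-bearing precursors), 27 to 32 (B220+ cells against wild-type precursors), 2 to 10 and 1 to 5 (heterozygous leukaemias and leukaemias with both copies against wild-type precursors), 6 to 16 and 21 to 34 (the same leukaemias against precursors of their genotype) and 0 to 8 (the Pax5 copy contrast between stages). Between leukaemias, 1 passed without the dimmest genes and 3 with other samples in the fit, against 0. For heterozygous against wild-type precursors, where 1 passed, quantile normalization and loess gave 2 each, array weights 15, the intensity trend 5, removal of dim genes 7, other samples 3, the replicate block 0 and precursors 3 left out 12. For precursors with both copies, quantile normalization gave 12 and loess 11, against 26. For heterozygous leukaemias against wild-type precursors, median centring gave 11, loess 3, array weights 10 and the replicate block 9, against 5. For leukaemias with both copies against wild-type precursors, array weights gave 1, other samples 5 and the arrays with high erythroid markers left out 1, against 3. The last setting gave 22 against B220+ cells, against 34. For heterozygous leukaemias against their precursors, array weights gave 8 and precursors 3 left out 7, against 15. For leukaemias with both copies against theirs, quantile normalization gave 22, array weights 11, other samples 10 and the erythroid setting 18, against 34. The Pax5 copy contrast between stages had 0 under quantile normalization, loess, array weights, other samples, the replicate block and both added settings, against 1. The replicate block changed no other count by over 1.5 times, and in the paired comparison of oncogene-bearing precursors it gave 0 as well. Median centring moved the all-gene median to -0.20 and -0.21 for the leukaemias against B220+ cells, where 16.4% and 19.1% of all calls were then higher, against 40.5% and 44.4%, and 54.1% and 56.5% with loess. The shares were 21.0% and 54.5% against 39.3% and 25.4% and 58.0% against 43.7% for the leukaemias against wild-type precursors, and 21.2% and 52.6% against 36.6% and, with loess, 51.8% against 39.6% for leukaemias against their precursors, with all-gene medians of -0.14, -0.15, -0.19 and -0.14. Of all calls, 53.3% were higher with quantile normalization in heterozygous precursors, against 29.4%, 54.6% and, centred, 31.6% in precursors with both copies, against 42.9%, and 64.8%, centred, in B220+ cells against wild-type precursors, against 51.8%. For the Pax5 copy contrast between stages the shares were 45.4%, 19.7% and 50.3% with quantile normalization, centring and loess, against 32.6%.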
